A study of Mus musculus with 4 samples.

Results

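The activator protein 1 (AP-1) family was examined in brown preadipocytes before and during adipogenesis. AP-1 is a set of transcription factors that bind DNA as dimers through a basic region and a leucine zipper. Jun proteins pair with each other or with Fos proteins, Fos proteins need a Jun partner, and several ATF-like proteins join the same dimers and often act as repressors. Many of these genes are transcribed within minutes of a growth factor or stress signal through MAP kinases, and AP-1 activity is known for its link to the proliferating, undifferentiated state of fat cell precursors.

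The members were fixed by name and by no cutoff on a measured value, though with earlier results of these data known. They are 3 Jun genes (*Jun*, *Junb*, *Jund*), 4 Fos genes (*Fos*, *Fosb*, *Fosl1*, *Fosl2*) and 3 ATF-like genes (*Atf3*, *Batf3*, *Jdp2*). All 10 were found among 22463 gene symbols of the 29082 transcripts counted, and all 10 had reads in each of the 4 libraries. The study's mark of expression was an RPKM, a read count scaled to exon length and mapped reads, over 1 in control cells on either day. It was passed by 11541 symbols and by 9 members, all but *Fosb*. *Jdp2*, with 3 transcripts in the files, is given by the one with most reads.

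The cells are 1 immortalized line of brown preadipocytes, taken from C57BL/6J mouse embryos at E18.5 and transformed with SV40T, and the cells of all 4 libraries lack *Mll3*, which encodes a histone H3K4 methyltransferase. The floxed alleles of *Mll4*, which encodes its close relative, were left in place in cells given adenoviral GFP (Ad-GFP, genotype *Mll3*-/-, called WT in the sample labels and control cells here) and were the target of Cre in cells given adenoviral Cre (Ad-Cre, *Mll3*-/-*Mll4*-/-, called MLL4 KO or KO cells). Day 0 is confluent cells before induction, and day 2 follows treatment with insulin, T3, indomethacin, dexamethasone and IBMX. The design asks how the change from day 0 to day 2 differs when MLL4 is deleted, with 1 library for each of the 4 conditions.

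No condition has a replicate, so no test between conditions was possible and no p-value is given. The 95% confidence intervals are exact binomial intervals for the read ratio of 2 libraries. They cover counting error only, and what they compare is 2 libraries rather than 2 conditions. Mapped reads ran from 17198448 to 22986362, and the deposited counts summed to between 96.1% and 99.4% of them in 3 libraries but to 87.8% in KO cells at day 2. Ratios that use that library also followed GC content and exon length. The log2 ratio of KO to control cells at day 2 had a median of −0.70 in the 10% of expressed genes with the lowest GC content and of 0.62 in the 10% with the highest (median GC 40.5% and 60.1%). Over exon length the medians were 0.48 in the shortest 10% and −0.76 in the longest. At day 0 the same medians were 0.085 and 0.014 over GC and −0.20 and −0.0029 over length. For day 2 over day 0, the medians over GC went from 0.35 down to −0.13 in control cells and from −0.46 up to 0.53 in KO cells. With 1 library per condition, such trends and an effect of the deletion cannot be told apart. *Junb* (62.6% GC) and *Jund* (62.7%) are richer in GC than 98.6% of expressed genes, and *Batf3* (60.5%, 712 bases of exon) is rich in GC too, with only 2.75% of genes shorter. Each member's ratios that use the day 2 KO library are therefore also given with the GC and length trends divided out, a correction chosen after seeing the data.

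Scaling also moves every gene together. TMM factors shifted the median log2 ratio of all genes by 0.18 for KO over control at day 2 and by −0.10 for day 2 over day 0 in control cells. The total of the deposited counts shifted it by 0.13 in the first of these and by 0.18 for day 2 over day 0 in KO cells. The whole *Mll4* transcript (*Kmt2d*) had 6304, 8530, 6316 and 5595 reads, and *Mll3* (*Kmt2c*) had 522, 1224, 463 and 451, in control cells at day 0 and day 2 and KO cells at day 0 and day 2. Counts over whole transcripts do not isolate the deleted exons and check no label. Summed RPKM of 8 preadipocyte and fibroblast markers was 1876, 228, 1341 and 282 in the same order, and that of 7 fat cell markers 31.0, 2105, 16.5 and 514. *Col1a1* alone gave 1246.5, 65.8, 1009.6 and 141.6 RPKM of the preadipocyte sums. From day 0 to day 2, 5 of these 8 were over 2.5-fold lower and 0 higher in control cells (median −2.15). In KO cells 3 were lower and 2 higher (median 0.092), or 2 and 2 with the trends divided out (0.48). Among all expressed genes 12.7% were that much lower and 8.38% higher in control cells, and 10.0% and 8.66% in KO cells. Before induction, 4 of the 8 preadipocyte markers were already over 2.5-fold lower in KO than in control cells and 0 higher (median −1.97). Among all expressed genes 4.12% were that much lower and 1.27% higher. The part of these markers in the AP-1 ratios was not tested. Of 6 brown fat markers 2 were expressed, *Prdm16* (at most 2.14 RPKM) and *Zic1* (at most 5.21 RPKM), while the defining genes *Ucp1* and *Cidea* had at most 1 read in any library. No macrophage, endothelial or skeletal muscle marker was expressed, with sums of at most 0.240 RPKM per list.

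The promoter windows of 4 members are printed, chosen after their values were seen, because their day 2 levels differ clearly. *Junb* and *Fosl2* were over 2.5-fold lower at day 2 in control cells but not in KO cells, *Jun* varied least among the members, and *Fos*, the classical immediate early gene, was near the expression threshold. Each window is 300 bases from RefSeq (GRCm38.p6), 250 before and 50 after the annotated start, read 5′ to 3′ on the gene's strand, and each matched NCBI37/mm9 once. Capitals mark TGACATCA, the variant AP-1 and ATF site, and TGACG, the core shared by CRE-type sites.
*Junb*, minus strand, chr8:87502598-87502897: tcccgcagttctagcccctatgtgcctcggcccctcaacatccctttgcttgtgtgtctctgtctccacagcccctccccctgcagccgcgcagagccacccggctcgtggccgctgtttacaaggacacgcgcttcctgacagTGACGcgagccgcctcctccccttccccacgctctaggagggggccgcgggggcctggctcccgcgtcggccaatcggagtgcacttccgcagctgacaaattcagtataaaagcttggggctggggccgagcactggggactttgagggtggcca
*Fosl2*, plus strand, chr5:32438595-32438894: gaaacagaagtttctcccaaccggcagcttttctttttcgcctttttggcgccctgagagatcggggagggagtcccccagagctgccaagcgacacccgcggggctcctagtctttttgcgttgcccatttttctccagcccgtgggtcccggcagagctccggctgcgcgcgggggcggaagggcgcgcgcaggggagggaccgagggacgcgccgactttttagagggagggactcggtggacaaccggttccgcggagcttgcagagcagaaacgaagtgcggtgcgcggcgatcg
*Jun*, minus strand, chr4:94718864-94719163: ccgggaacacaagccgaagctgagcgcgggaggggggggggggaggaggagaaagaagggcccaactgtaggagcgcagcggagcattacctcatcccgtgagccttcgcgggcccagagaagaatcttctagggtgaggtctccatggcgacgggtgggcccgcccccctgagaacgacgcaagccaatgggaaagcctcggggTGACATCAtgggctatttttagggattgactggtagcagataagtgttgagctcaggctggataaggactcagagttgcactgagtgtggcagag
*Fos*, plus strand, chr12:86814590-86814889: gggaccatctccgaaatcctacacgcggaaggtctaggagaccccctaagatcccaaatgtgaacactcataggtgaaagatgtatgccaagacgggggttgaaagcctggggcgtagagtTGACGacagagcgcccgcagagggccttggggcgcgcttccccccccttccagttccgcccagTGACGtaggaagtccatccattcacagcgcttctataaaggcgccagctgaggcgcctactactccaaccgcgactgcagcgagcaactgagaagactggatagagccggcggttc

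Windows were found for 9 of the 10 members, 11 windows in all because *Jdp2* had several, and *Fosl1* had none. Motifs were searched on both strands. TGACATCA stood in the *Jun* window alone, at position −45 from the start, and in 3.62% of 32851 promoters of the same length. TGACG stood in windows of 5 members, *Junb* (−106), *Fos* (−129 and −66), *Fosb* (−60), *Atf3* (−7, minus strand) and *Jdp2* (−114, not in all of its windows). It stood in 20.8% of all promoters, a share of single windows. The canonical AP-1 site TGANTCA (7.81% of promoters) and the full CRE TGACGTCA (1.79%, and containing TGACG) were in no member's window. A match describes letters and not a bound site, and no match says only that these letters are not in this window. *Junb*, whose window has TGACG, and *Fosl2*, whose window has none of the 4 motifs, were both over 2.5-fold lower at day 2 in control cells, as described next.

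In control cells, AP-1 transcripts were mostly lower at day 2 than at day 0. Over 2.5-fold lower (the study's cutoff, 1.32 on the log2 scale) were *Junb*, *Jund*, *Fosl2* and *Fosb*, 4 of 10 members and 3 of the 9 expressed, and no member was over 2.5-fold higher. Among all expressed genes 12.7% were that much lower and 8.38% that much higher. The median log2 ratio was −1.07 for the 10 members and −0.85 for the 9 expressed ones, against 0.15 for all expressed genes. In bulk RNA, fewer cells of a type and less RNA per cell cannot be told apart. In KO cells only *Fosl1* was over 2.5-fold lower (10.0% of all genes) and none was that much higher (8.66%). The median there was −0.18, or −0.15 for the 9 expressed members, against −0.012 for all expressed genes. With the GC and length trends divided out, 4 members, 3 of them expressed, were over 2.5-fold lower in control cells (13.2% of expressed genes) and 0 higher (6.63%). In KO cells *Fosl1* alone was then lower (8.86%) and 0 higher (6.16%).

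**Figure D1:**
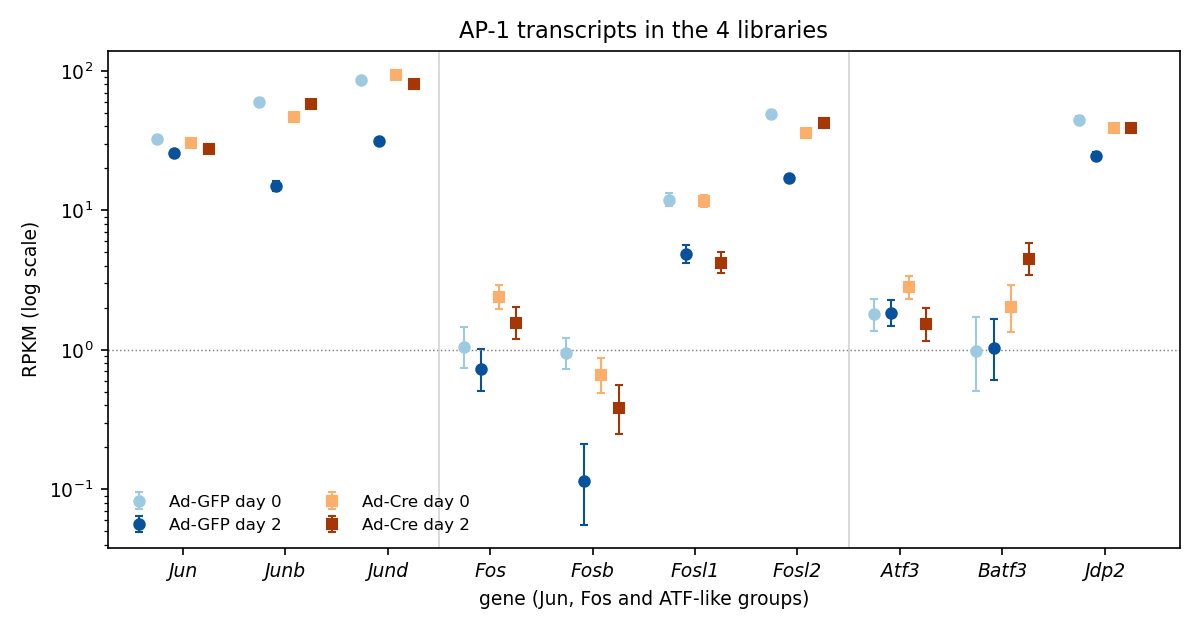
RPKM (log axis) of the 10 AP-1 genes in the 4 libraries, grouped into Jun, Fos and ATF-like genes, with exact Poisson 95% intervals of the reads and a dotted line at 1 RPKM. Junb, Jund, Fosl2 and Jdp2 have their single lowest level in Ad-GFP cells at day 2, while Fosl1 is low at day 2 in both cell populations.

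Among the Jun genes, *Junb* differed most. It encodes a Jun protein that activates weakly as a homodimer and can restrain c-Jun. The gene is a single exon on chromosome 8, minus strand (NM_008416, NCBI37/mm9, 87500811 to 87502617). It had 1902 reads (60.1 RPKM) in control cells at day 0 and 632 (14.9 RPKM) at day 2, against 1685 (46.9 RPKM) and 1919 (57.8 RPKM) in KO cells. The day 2 control library is low and the other 3 lie between 46.9 and 60.1 RPKM. From day 0 to day 2 the log2 ratio was −2.01 in control cells (95% confidence interval −2.14 to −1.88), or 4.02-fold lower, and 0.30 in KO cells (0.21 to 0.40). With the trends divided out these were −1.91 and −0.37, so the sign in KO cells depends on the correction while the low level in control cells does not.

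*Jund*, which encodes the Jun protein usually present in resting cells, had the highest RPKM of the family in every library. It lies in 1 exon on the plus strand of chromosome 8 (NM_010592, 73221638 to 73224515). Its counts were 4286 reads (86.6 RPKM) and 2077 (31.4 RPKM) in control cells at day 0 and day 2, and 5253 (93.5 RPKM) and 4217 (81.3 RPKM) in KO cells. The day 2 control library again stood below the other 3. From day 0 to day 2 the log2 ratio was −1.46 in control cells (−1.54 to −1.39) and −0.20 in KO cells (−0.26 to −0.14), and −1.36 and −0.57 with the trends divided out. Of 50-base windows of this transcript, 5.83% matched elsewhere in the genome with at most 2 mismatches, and none did for the other members. How such reads were counted is not given in the sources used here.

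*Jun*, which encodes c-Jun, the strongest activator among the Jun proteins, varied least. Its single exon is on the minus strand of chromosome 4 (NM_010591, 94715725 to 94718913), and 1771, 1885, 1884 and 1572 reads (32.3, 25.7, 30.3 and 27.4 RPKM) were counted in control cells at day 0 and day 2 and KO cells at day 0 and day 2. These levels span less than those of any other member. From day 0 to day 2 the log2 ratio was −0.33 (−0.42 to −0.23) in control and −0.15 (−0.24 to −0.050) in KO cells, and the latter turned to 0.031 when scaled to the deposited totals. Dividing out the trends gave −0.32 and −0.21. Exons of *Jun* overlap the antisense gene BC042782, those of *Jund* the antisense Gm11175 and those of *Fosl1* the antisense *Ccdc85b*. Whether the counting used strand is not given in the sources used here, so their reads cannot be told apart.

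Among the Fos genes, *Fosl2* carried most of the transcript. It encodes Fra-2, a Fos protein without the strong activation domain of c-Fos. Its 4 exons are on the plus strand of chromosome 5 (NM_008037, 32438845 to 32460204). *Fosl2* had 4986 reads (49.4 RPKM) and 2306 (17.1 RPKM) in control cells at day 0 and day 2, and 4078 (35.6 RPKM) and 4460 (42.2 RPKM) in KO cells. As for *Junb*, only the day 2 control library was low. From day 0 to day 2 the log2 ratio was −1.53 in control cells (−1.60 to −1.46) and 0.24 in KO cells (0.18 to 0.30). Dividing out the trends gave −1.65 and 0.62, and since its GC content (51.9%) is near the middle and its exons (5863 bases) are long, this moved *Fosl2* the opposite way to *Junb*.

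*Fosl1*, which encodes Fra-1, had a similar pattern in both populations. It lies in 4 exons on the plus strand of chromosome 19 (NM_010235, 5447703 to 5455945). In control cells it had 350 reads (11.9 RPKM) at day 0 and 191 (4.87 RPKM) at day 2, and in KO cells 391 (11.8 RPKM) and 130 (4.23 RPKM). Both day 2 libraries were low and both day 0 libraries were nearly equal. The log2 ratios were −1.29 (−1.55 to −1.03), or 2.45-fold lower and just short of the cutoff, in control cells and −1.47 (−1.77 to −1.19), or 2.78-fold lower and just past it, in KO cells. With the trends divided out they were −1.21 and −2.03.

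*Fos* and *Fosb*, which encode the c-Fos and FosB activators and are best known as transient immediate early genes, were at the edge of detection. *Fos* (4 exons, plus strand of chromosome 12, NM_010234, 86814840 to 86818223) had 38 and 35 reads in control cells and 98 and 59 in KO cells (1.06, 0.73, 2.40 and 1.56 RPKM). Both KO libraries lay above both control libraries. *Fosb* (4 exons, minus strand of chromosome 7, NM_008036, 19888070 to 19895394) had 62, 10, 49 and 26 reads in the same order (0.95, 0.12, 0.67 and 0.38 RPKM), with the fewest in control cells at day 2. Its log2 ratio from day 0 to day 2 was −3.05 in control cells (−4.18 to −2.08) and −0.80 in KO cells (−1.55 to −0.086). For *Fos* the ratios were −0.54 (−1.24 to 0.16) and −0.62 (−1.11 to −0.14). The *Fosb* ratios were −3.05 and −0.73 with the trends divided out, and those of *Fos* −0.70 and −0.86. Adding 1 RPKM to both sides reduced the *Fosb* ratio in control cells to −0.81.

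Of the ATF-like genes, *Jdp2* had by far the highest level. Jdp2 dimerizes with Jun proteins and represses through AP-1 and CRE sites. In its 4 exons on the plus strand of chromosome 12 (NM_030887, 86940366 to 86980827), 122 kb from *Fos*, 1263 and 934 reads (44.7 and 24.7 RPKM) were counted in control cells and 1246 and 1157 (38.9 and 39.1 RPKM) in KO cells. The low library was once more the control one at day 2, by a smaller margin. Its log2 ratio from day 0 to day 2 was −0.85 (−0.98 to −0.73) in control cells and 0.0069 (−0.11 to 0.12) in KO cells, and −0.77 and −0.54 with the trends divided out.

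*Batf3*, a small factor without an activation domain that pairs with Jun proteins in dendritic and T cells, showed another order. It has 3 exons on the plus strand of chromosome 1 (NM_030060, 192922293 to 192932822) and had 12 and 17 reads (0.98 and 1.04 RPKM) in control cells and 28 and 58 (2.02 and 4.52 RPKM) in KO cells. KO cells were higher on both days, with the highest level at day 2. From day 0 to day 2 the log2 ratio was 0.084 (−1.07 to 1.28) in control cells and 1.16 (0.49 to 1.87) in KO cells, and the latter was −0.14 with the trends divided out. *Atf3*, a stress-induced factor that often represses, lies 61.4 kb away on the minus strand (4 exons, NM_007498, 192994175 to 193007219). It had 61 and 84 reads (1.79 and 1.85 RPKM) in control cells and 108 and 55 (2.80 and 1.54 RPKM) in KO cells, highest in KO cells at day 0. Its log2 ratios of day 2 to day 0 were 0.043 (−0.45 to 0.54) and −0.86 (−1.36 to −0.38), and −0.11 and −1.1 with the trends divided out.

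**Figure D2:**
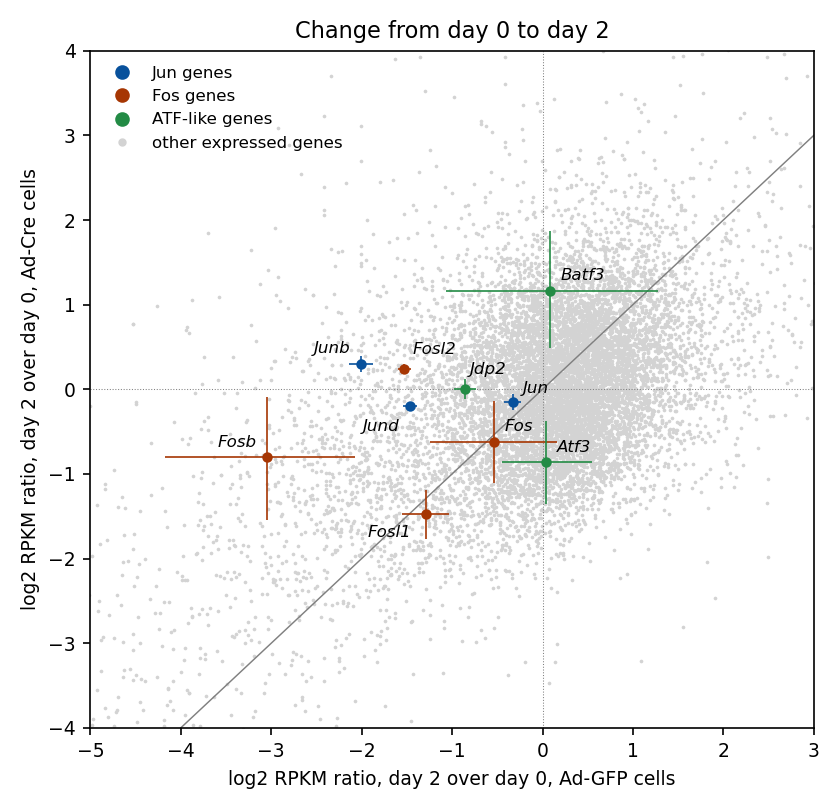
Log2 RPKM ratio of day 2 over day 0 in Ad-GFP cells (x) and Ad-Cre cells (y) for expressed genes (grey) and the 10 AP-1 genes (coloured, with 95% counting intervals); the diagonal marks equal ratios. Junb (−2.01, 0.30), Fosl2 (−1.53, 0.24), Jund (−1.46, −0.20) and Fosb lie left of the diagonal, while Fosl1 lies close to it.

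The difference between these log2 ratios, KO minus control, sets the 2 changes side by side. It was above 0 for 7 of 10 members, while 45.9% of expressed genes were above 0. The counting interval was above 0 for 6 members and below 0 for 1, counts with no share of all genes beside them. The values were 2.31 for *Junb* (95% interval 2.15 to 2.47), 2.25 for *Fosb* (1.07 to 3.43), 1.77 for *Fosl2* (1.68 to 1.87), 1.26 for *Jund* (1.16 to 1.36) and 0.86 for *Jdp2* (0.69 to 1.03). *Jun* was at 0.18 (0.047 to 0.32), and *Atf3* at −0.90 (−1.57 to −0.24) was the one member with its interval below 0. For *Batf3* (1.08, −0.17 to 2.33), *Fos* (−0.081, −0.89 to 0.73) and *Fosl1* (−0.18, −0.57 to 0.20) the interval held 0. With the trends divided out, *Fosb* (2.32), *Fosl2* (2.27) and *Junb* (1.54) had 2.79%, 2.99% and 7.30% of genes above them, *Jund* (0.80) had 18.7%, *Jdp2* was at 0.23 and *Jun* at 0.11. Below 0 were then *Atf3* (−0.99, with 89.7% of genes above it), *Fosl1* (−0.82, 85.6%), *Batf3* (−0.34) and *Fos* (−0.15).

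Before induction, no AP-1 gene passed the cutoff between the populations. The counting interval excluded 0 for 7 of 10. No share of all genes is given for such intervals, so this count is no result about the family. At day 0 the median log2 ratio was −0.058 for all members and −0.022 for the expressed ones, against −0.022 for all expressed genes. No member was over 2.5-fold lower or higher in KO than in control cells, as were 4.12% and 1.27% of all genes. With shares of all genes this small, a count of 0 among 10 says little of the family. The highest ratios belonged to genes with few reads, *Fos* at 1.18 (0.63 to 1.77), or 2.27-fold with 1.60% of genes above it, *Batf3* at 1.04 (0.018 to 2.15), or 2.06-fold with 2.22% above it, and *Atf3* at 0.64 (0.18 to 1.12). Of the abundant members, *Fosl2* was at −0.47 (−0.53 to −0.41), *Junb* at −0.36 (−0.45 to −0.26), *Jdp2* at −0.20 (−0.32 to −0.088) and *Jund* at 0.11 (0.053 to 0.17). For *Jun*, *Fosl1* and *Fosb* the interval held 0. No member passed the cutoff in either direction with the trends divided out (3.78% and 1.09% of genes).

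At day 2 the order was different. Over 2.5-fold higher in KO than in control cells were *Junb*, *Jund*, *Fosb* and *Batf3*, 4 of 10 members and 3 of the 9 expressed, against 8.14% of all genes, and no member was that much lower (10.1%). The median log2 ratio of the members was 1.2, against −0.16 for all genes. *Batf3* was at 2.12 (1.32 to 2.99), *Junb* at 1.95 (1.82 to 2.08), *Fosb* at 1.73 (0.63 to 2.95) and *Jund* at 1.37 (1.30 to 1.45). *Fosl2* at 1.30 (1.23 to 1.38), or 2.47-fold, was just short of the cutoff and *Jund*, at 2.59-fold, just past it. *Fos* was at 1.1 (0.48 to 1.75) and *Jdp2* at 0.66 (0.53 to 0.79), and the intervals of *Jun* (0.088), *Fosl1* (−0.20) and *Atf3* (−0.26) held 0. These ratios share their libraries with the ratios over time and are no further evidence of them.

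Which members passed the cutoff at day 2 changed once the GC and length trends were divided out. *Fosl2* (1.74) was then the only expressed member past it, with *Fosb* (1.83), which did not pass the mark of expression. Among expressed genes 7.03% were that much higher and 5.52% that much lower, and 0 members were that much lower. *Junb* (1.19, or 2.28-fold), *Jund* (0.87) and *Batf3* (0.94) were short of the cutoff. *Fos* stayed at 1.06, *Jdp2* went to 0.042, *Jun* to 0.0037, *Fosl1* to −0.82 and *Atf3* to −0.38. The direction of *Junb*, *Jund*, *Fosl2*, *Fosb*, *Fos* and *Batf3* was higher in KO cells in both forms. All 7 fat cell markers were over 2.5-fold lower in KO cells at day 2 (median −2.17), against 10.1% of all expressed genes. The part of these markers in the AP-1 ratios was not tested.

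**Figure D3:**
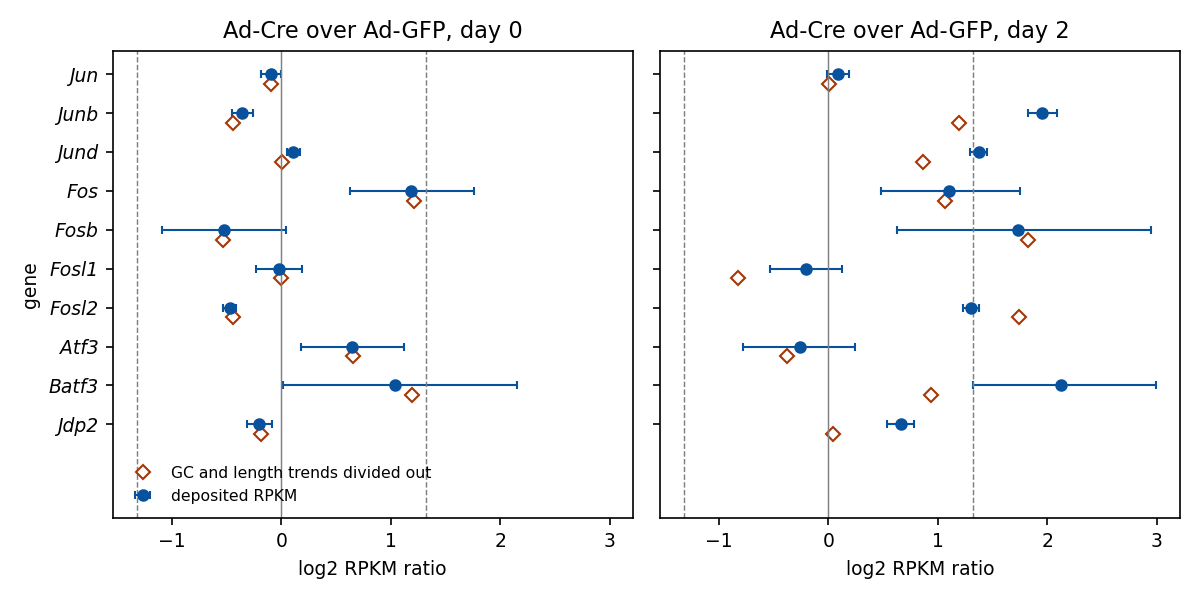
Log2 RPKM ratio of Ad-Cre (KO) over Ad-GFP (control) cells at day 0 (left) and day 2 (right) for each AP-1 gene, from deposited RPKM (filled, with 95% counting intervals) and with the GC and length trends divided out (open); dashed lines mark 2.5-fold. At day 2 Junb moves from 1.95 to 1.19, below the line, and Fosl2 from 1.30 to 1.74, above it.

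**Figure D4:**
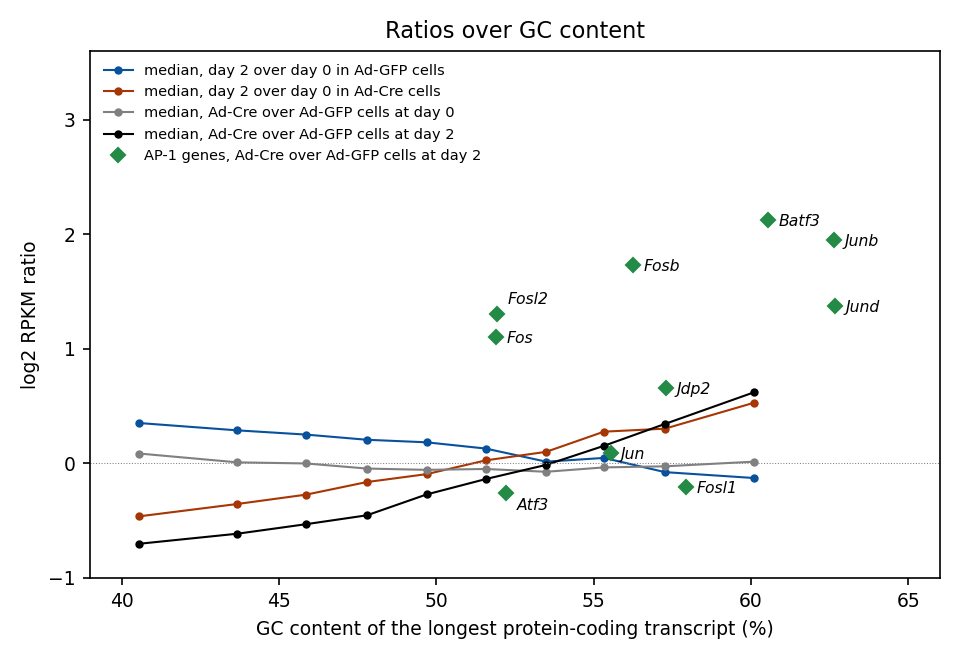
Median log2 ratio of expressed genes in 10 bins of GC content (lines, 4 comparisons) and the Ad-Cre over Ad-GFP ratio at day 2 of each AP-1 gene at its own GC content (diamonds). The line for Ad-Cre over Ad-GFP at day 2 climbs from −0.70 to 0.62, and Junb, Jund and Batf3 sit at the high-GC end.

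Per length, the family as a whole was dominated by Jun genes. Summed RPKM over the 10 members was 290 in control cells at day 0, 123 at day 2, and 265 and 260 in KO cells. Jun genes made up 61.8%, 58.8%, 64.5% and 64.0% of it, Fos genes 21.9%, 18.6%, 19.0% and 18.6%, and ATF-like genes 16.4%, 22.5%, 16.5% and 17.4%. The day 2 control library thus had the smallest sum and the largest ATF-like share. These sums are of deposited RPKM, and the GC and length trends bear on them. Dividing out the trends took KO over control at day 2 from 1.58-fold to 1.03-fold for *Jdp2* and from 2.59-fold to 1.83-fold for *Jund*. *Junb* went from 3.87-fold to 2.28-fold, and *Fosl2* the other way, from 2.47-fold to 3.35-fold. *Jund* ranked first everywhere, with 29.9%, 25.6%, 35.3% and 31.3% of the sum. *Junb* ranked second in 3 libraries and at rank 5 in control cells at day 2, where *Jun* was second with an interval that overlapped that of *Jdp2*. *Fos*, *Fosb*, *Atf3* and *Batf3* were the lowest members in 3 libraries, while in KO cells at day 2 *Batf3* stood just above *Fosl1* with overlapping intervals. Among these low genes, neighbours without overlapping intervals were *Fos* and *Fosb* in control cells at day 2, *Batf3* and *Fosb* in KO cells at day 0, and both *Fosl1* and *Fos* and *Atf3* and *Fosb* in KO cells at day 2.

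**Figure D5:**
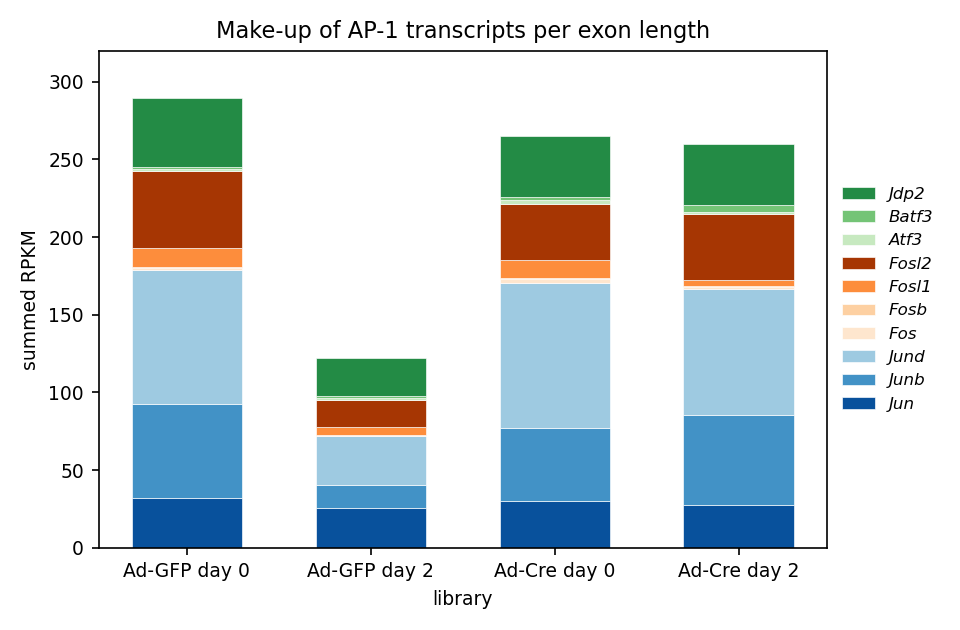
Summed deposited RPKM of the 10 AP-1 genes in each library, stacked by gene, with the GC and length trends not divided out. The sum is 123 in Ad-GFP cells at day 2 and between 260 and 290 in the other 3 libraries, and Jund, Junb, Fosl2 and Jdp2 account for most of the difference.

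Genes around AP-1 gave ratios in both directions. For the counts of this and the following lists, 12.7% of all expressed genes were over 2.5-fold lower at day 2 in control cells and 8.38% higher. In KO cells these shares were 10.0% and 8.66%, and for KO over control at day 2 they were 10.1% and 8.14%. With the trends divided out they were 8.86% and 6.16% in KO cells and 5.52% and 7.03% for KO over control at day 2. Of 20 other immediate early genes, 18 were expressed, and 7 were over 2.5-fold lower and 1 higher at day 2 in control cells (median log2 ratio −1.17), against 6 and 0 in KO cells (−0.54), and 6 and 0 there with the trends divided out (−0.45). *Ccn2* and *Ccn1*, matricellular proteins, had the lowest ratios with *Egr3*, a zinc finger factor, and *Myc*, the growth regulator, the highest. *Ccn2* was at 23.2, 0.45, 145 and 1.69 RPKM and *Ccn1* had 1943, 187, 8191 and 733 reads in the library order above, so that both were lower at day 2 in both populations. *Egr3* went from 2.55 to 0.18 RPKM in control and from 2.82 to 0.31 in KO cells, and *Myc* from 18.3 to 92.8 and from 40.9 to 79.3. *Zfp36* and *Btg2*, which destabilize mRNA or restrain growth, had log2 ratios of 0.71 and 0.44 in control cells. At day 2, 7 genes of the list were over 2.5-fold higher in KO cells and 1 lower (median 0.76), and 5 and 1 with the trends divided out (0.78).

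Of 24 genes often cited as AP-1 targets, 17 were expressed. At day 2 in control cells, 14 of these were over 2.5-fold lower and 1 higher (12.7% and 8.38% of all expressed genes). Their median log2 ratio was −3.23. In KO cells 12 were lower and 0 higher (−2.00), and 12 and 0 with the trends divided out (−2.07). Unlike *Junb* and *Fosl2*, most of these genes were thus low at day 2 in both populations. *Spp1* (osteopontin) was at 35.2, 0.32, 10.3 and 0.30 RPKM and *Ccl2*, a chemokine, at 18.3, 0.27, 13.7 and 0.76. *Sprr1a*, a cornified envelope protein, had 126, 1, 11 and 2 reads. The highest ratios were those of *Vegfa* (2.39), an angiogenic factor, *Hmox1* (−0.45), heme oxygenase, and *Cd44* (−1.30), a hyaluronan receptor. At day 2, 8 of the 17 were over 2.5-fold higher in KO than in control cells and 1 was lower, *Vegfa* at −1.97 (median 1.1), and 7 and 1 with the trends divided out (0.77, *Vegfa* at −1.58).

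Other dimer partners and upstream genes gave mixed counts. In lists this short, 1 or 2 genes past the cutoff say little beside the shares of all genes given above. Among 8 expressed genes of 10 other AP-1 and Maf partners, 1 was over 2.5-fold lower and 1 higher at day 2 in control cells (median 0.34), 1 and 1 in KO cells (−0.42), or 2 and 1 there with the trends divided out (−0.35), when *Mafk* (−1.24, then −1.50) was also past the cutoff. *Maff* (10.4, 2.54, 13.1 and 4.13 RPKM) was lower at day 2 in both populations. *Ddit3*, the stress factor CHOP, was the highest at 1.59 in control cells, with *Maf* at 1.13 and *Nfe2l1*, a relative of *Nfe2l2*, at 0.81, and *Mafk* at −0.62 and the antioxidant regulator *Nfe2l2* at −0.039. At day 2, 1 gene of this list was over 2.5-fold lower in KO cells (*Nfe2l1*, −1.41) and 0 higher (median −0.51). With the trends divided out 1 gene was still past the cutoff, now *Ddit3* (−1.63) with *Nfe2l1* at −1.15, and the median was −0.040.

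For 9 CREB and ATF factors the counts at day 2 in control cells were 2 lower and 0 higher (median 0.31). They were 2 and 0 in KO cells (−0.49), and 2 and 0 with the trends divided out (−0.35). *Creb3l1*, a membrane-bound factor of secretory cells, was at 86.2, 3.49, 155 and 15.5 RPKM and *Creb5* had 91, 2, 88 and 8 reads. *Atf4*, the amino acid stress factor, *Atf6*, its relative of the endoplasmic reticulum, and *Crem* had ratios of 0.94, 1.29 and 0.69 in control cells, and *Creb3l2* of −1.14. In KO over control cells at day 2, 2 genes were higher (*Creb3l1* and *Creb5*) and 1 lower (*Atf6*, −1.80), with a median of −0.36. With the trends divided out the counts were 2 and 0 (*Atf6* at −0.84) and the median turned to 0.15.

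Of 16 expressed genes of the MAP kinase cascade, which phosphorylates AP-1 proteins, 1 was over 2.5-fold lower and 1 higher at day 2 in control cells (median 0.22). These were *Mapk11* at −2.91, a p38 kinase, and *Map3k5* at 4.11, the stress kinase ASK1, and *Mapk3*, which encodes ERK1, was at −1.05. *Map2k6* was at −0.84, *Mapk9*, which encodes JNK2, at 0.89 and *Map3k1* at 0.78. The counts were 1 and 1 in KO cells (−0.32, and 0.00085 with the same counts once the trends were divided out), and *Mapk11* (1.69) was higher and *Map3k5* (−1.51) lower in KO than in control cells at day 2 (median −0.62). These were 1.42 and −0.89, with a median of −0.20, once the trends were divided out.

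Among 14 expressed MAP kinase phosphatases and feedback inhibitors, 4 were lower and 2 higher in control cells (−0.81), and 6 and 0 in KO cells (−1.12, and −1.25 with the same counts once the trends were divided out). *Dusp5*, *Dusp8* and *Dusp6*, phosphatases of MAP kinases, had ratios of −2.84, −2.81 and −2.03 in control cells. *Spry4* and *Dusp4* were higher there at day 2 (1.83 and 1.59), and these were the 2 genes of the list over 2.5-fold lower in KO cells at day 2 (−2.21 and −2.29), while *Spry1* was at 0.63 and −0.90 in these ratios. In the other direction, 1 gene of the list was over 2.5-fold higher in KO cells at day 2, with the trends divided out too. The list's median at day 2 was −0.31. Dividing out the trends gave −0.22, with *Spry4* at −1.71, *Dusp4* at −2.44 and *Spry1* at −1.16. A list of 6 genes held SRF, ternary complex factors and other SRF partners, which act at *Fos* and other immediate early promoters. Of these, *Elk3* alone was over 2.5-fold lower at day 2, in both populations (−2.34 and −1.63, list medians −0.33 and −0.97). In KO cells *Elk3* was at −1.30, short of the cutoff, with the trends divided out (list median −0.67). *Srf* itself was at −0.46 and −1.02, the latter −1.12 with the trends divided out. *Mrtfa* (1.47) was over 2.5-fold higher in KO cells at day 2 and was at 1.28, short of the cutoff, with the trends divided out (list medians −0.16 and 0.00053). From day 0 to day 2 in control cells, *Elk1*, *Elk4* and *Mrtfb* were at 0.25, −0.20 and 0.083.

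The expressed gene with the most similar pattern to each of the 9 expressed members (all but *Fosb*) was found from the root mean square difference of log2 RPKM over the 4 libraries, each gene centred on its mean, among 11437 genes. For *Junb* it was *Sertad1* (difference 0.075), with 43 genes within 0.2. For *Fosl2* it was *Mex3a* (0.071), for *Jund* *Erbb2* (0.038), for *Jdp2* D330050I16Rik (0.013) and for *Fosl1* *Commd10* (0.038). *Jun* was nearest to *Tpcn1* (0.025), *Fos* to *Ydjc* (0.074), *Atf3* to *Fasn* (0.034) and *Batf3* to *Efna3* (0.059), which had 5 genes within 0.2. Among these 9, the rarest patterns by this count were those of *Batf3* and *Fos* (17 genes), and the commonest that of *Jun* (989). Likeness over 4 libraries says nothing of shared function.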

How the data were processed

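RNA was sequenced by the study from 4 libraries of brown preadipocytes, 1 for each combination of Ad-GFP or Ad-Cre and day 0 or day 2, and libraries were assigned to groups by their sample titles. The authors processed reads with the Illumina Analysis Pipeline on the mm9 assembly and deposited, for each of 29082 RefSeq transcripts, the read count on its exons as a whole number without normalization. The authors also deposited the RPKM of each transcript, that is, the count divided by exon length and by mapped reads. The submitters' processing notes name bedtools 2.16 and SICER 1.1 with no role, and the version of that pipeline and the treatment of strand and of reads with several matches are not given in the sources used here. The exon lengths and mapped reads behind the RPKM (17198448 to 22986362 per library) were recovered from the 2 deposited columns, and 3 reads on 1 kb of exon correspond to between 0.131 and 0.174 RPKM.

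The members, gene lists and alternatives were chosen with earlier results of these data known. Symbols came from a RefSeq table (97.8% of transcripts matched), and a gene with several transcripts is given by the one counted most often. Ratios were formed from RPKM with no pseudocount. Intervals (95%) are exact binomial for ratios, exact Poisson for levels and from the delta method for differences of ratios and shares. They cover counting error only. The procedure was tested on simulated data. All 10 members are named, and from each list at most the 3 highest and 3 lowest ratios of day 2 over day 0 in Ad-GFP (control) cells among genes with at least 100 reads in all. The lists hold other AP-1 and Maf partners, CREB and ATF factors, immediate early genes, MAP kinases, their phosphatases and inhibitors, SRF factors, AP-1 targets and cell type markers. Atf7 and Cd68 were not analysed here. One further item is not reported here.

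GC content was taken from the longest protein-coding GENCODE vM1 transcript, found for 94.0% of the 11541 expressed symbols and all members. Trends were medians over 20 bins of GC and of exon length, subtracted in 5 rounds. Coordinates are NCBI37/mm9 from the same annotation. The table of promoters is RefSeq's on GRCm38.p6, and each member's window was matched to NCBI37/mm9 by its sequence. Repeated sequence was sought with blastn 2.17.0 in 50-base windows. TMM factors came from edgeR 4.0.16 (R 4.3.3) with the deposited counts as input, and its tests were not used. All else was done with scipy 1.17.1, numpy 2.4.6, pandas 2.3.3 and matplotlib 3.10.9 under Python 3.11.15. The alternatives were TMM factors, the total of deposited counts, 1 RPKM added, at least 20 reads, cutoffs of 2-fold and 4-fold, the interval bound past the cutoff, all transcripts of a gene, thinning to the smallest library and the trend over length, and after seeing the data those over GC and over GC and length.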

Additional observations from a re-analysis of the deposited data

Results flagged for a closer look

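In 4 members the change from day 0 to day 2 had one sign in control cells and the other in KO cells. With 1 library per condition the difference was not tested, and counting error is the only error known. *Junb* was at −2.01 and 0.30 on the log2 scale, a difference of 2.31, and 1.54 with the GC and length trends divided out, where both changes were below 0. *Fosl2* was at −1.53 and 0.24, a difference of 1.77, and 2.27 with the trends divided out, where the signs remained opposite. *Atf3* was at 0.043 and −0.86, a difference of −0.90, with between 55 and 108 reads per library, an interval of its control ratio that held 0, and −0.99 with the trends divided out, where both changes were below 0. *Jdp2* was at −0.85 and 0.0069, and the interval of its KO ratio (−0.11 to 0.12) held 0, so its sign there is not settled. Its difference was 0.86, and 0.23 with the trends divided out, where both changes were below 0.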

How the results depend on the processing

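No paired analysis was possible because each condition has 1 library, and for the same reason no library could be left out. Over the alternatives, 342 of 360 ratios of single members kept their sign and 18, spread over 6 genes, did not. Among ratios whose counting interval excluded 0, those that changed sign were of day 2 over day 0 in KO cells. *Jun* went to 0.031 with the total of the deposited counts and to 0.015 with the length trend divided out. *Junb* went to −0.32 with the GC trend and −0.37 with both trends divided out, and *Batf3* to −0.14 with both. *Jdp2*, whose interval in KO cells held 0, went from 0.0069 to −0.35 with the GC trend divided out. It went to −0.37 with the length trend and to −0.54 with both trends divided out. The members' median ratio of day 2 over day 0 in KO cells was 0.0033 with the deposited totals. It was −0.58 with the GC trend and −0.56 with both trends divided out. Adding 1 RPKM moved the median to −0.82 for day 2 over day 0 in control cells and to 0.60 for KO over control at day 2.

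Counts of members past the cutoff moved up or down in these settings, among others. Shares of all genes were given above only for 2.5-fold, from deposited RPKM or with both trends divided out. The counts below at other settings have no such share beside them and describe the members only. In control cells 2 (*Junb*, *Fosb*) were over 4-fold lower at day 2, and *Fosl1* also passed with a 2-fold cutoff or the length trend divided out (−1.37). In KO cells 0 were past the cutoff lower with the deposited totals, 1 RPKM added, a 4-fold cutoff or the interval bound past it, and 1 (*Batf3*) was higher with the deposited totals or a 2-fold cutoff. KO over control, 2 (*Fos*, *Batf3*) were over 2-fold higher at day 0. At day 2, 2 (*Fosb*, *Fosl2*) were higher with both trends divided out, 1 (*Batf3*) with a 4-fold cutoff and 1 (*Junb*) by its interval bound. With the GC trend alone divided out, *Fosb* (1.54), *Batf3* (1.43) and *Fosl2* (1.35) were higher. *Fosl2* also passed with the length trend divided out (1.95), and *Fosl2* and *Fos* with a 2-fold cutoff. Apart from settings that set another cutoff, add a constant, rescale all genes or divide out a trend, the cause was not tested. Depth limits *Fos*, *Fosb*, *Atf3* and *Batf3*, which had at most 108 reads in a library.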
